A study of Mus musculus with 145 samples.

Results

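The comparison described here set the dorsal skin of 5 mice taken 72 h after 10 mJ/cm2 of ultraviolet light against that of 5 sham mice taken at the same time. The members were all 10 libraries that the labels give for these groups, of 145 in the series, and hair follicle and melanocyte genes were read in each animal. In 3 of the 5 exposed animals, replicates 1, 2 and 5, genes of the growing hair shaft and its sheaths and genes of pigment synthesis stood far above the sham animals. The other two exposed animals, replicates 3 and 4, stood within or near the sham range for the same genes. No gene passed the test between the groups.

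The source was a tanning canopy of 8 fluorescent lamps, and per the design text 96.4% of its ultraviolet output was UVA and 3.6% was UVB. Sham animals were handled in the same way and received 0 mJ/cm2. The whole study crossed 5 doses with 6 times, and the order of samples was randomized per the design text. Each library is a separate animal, since the labels number the animals one by one, and replicate numbers follow the order of the samples and pair nothing. The sources used here give no genotype, strain, sex, age or state of the coat. Whole dorsal skin was measured, so fewer cells of a type and less RNA per cell cannot be told apart in any value below.

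Hair follicles pass through growth (anagen), regression and rest. During growth, matrix cells at the base of the follicle divide under Wnt and sonic hedgehog signals and differentiate into the inner root sheath and the keratin-filled shaft, around a dermal papilla that instructs them. Follicular melanocytes are active in the same phase: they make melanin in melanosomes from tyrosine, with the enzymes of the tyrosinase family, and pass it to the shaft, so transcripts of shaft and pigment are both low in resting skin.

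Total counts ran from 4.15 to 19.1 M (M for mega) in sham and from 4.60 to 63.2 M at 10 mJ/cm2, and did not separate the groups (exact permutation test, two-sided, p = 0.897). The share of mitochondrial counts was 2.46 to 12.0% in sham and 2.20 to 14.4% at 10 mJ/cm2 (exact permutation test, two-sided, p = 0.929), where the smallest p that 5 against 5 animals allow is 0.00794. The libraries above 10% were sham replicate 3 and 10 mJ/cm2 replicate 3, and both also held the lowest levels of skeletal muscle genes of their groups, 8.70 and 8.12 log2 CPM against 9.39 to 10.43 in the other 8. Library titles end in R1_001 for replicates 1 and 2 of both groups and in R1 for replicates 3 to 5. Among the 45 pairs of the 10 libraries none was closer than a correlation of 0.985 and a chi-square of 10.6 per degree of freedom, so no pair looked like 1 library counted more than once.

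Across all 18677 genes tested, edgeR's quasi-likelihood test called 0 genes (0%) between 10 mJ/cm2 and sham at an adjusted p under 0.05, and the adjusted p of every gene was 1. At an unadjusted p under 0.05 there were 476 genes (2.55%), of which 399 were higher (2.14%) and 77 lower (0.412%) at 10 mJ/cm2. The share of 2.55% lay below 0.05, the share that this threshold gives on average where no gene differs. The count is thus no excess in this fit, and it changed with the fit, up to 1280 in the libraries titled R1_001. DESeq2 called 0 genes and had 559 at an unadjusted p under 0.05. The count of 476 was 287 without sham replicate 2 and 853 without sham replicate 3, and it was 275, 1004, 818 and 164 without exposed replicates 1, 3, 4 and 5. The 10 named genes with the smallest p were all higher at 10 mJ/cm2, and several are genes of the hair follicle or of pigment cells, but none of them passed the adjusted test.

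S100a3, a calcium-binding protein of the hair cuticle and the gene with the smallest p, stood at 0.355, 0.475, 1, 0.711 and 0.86 CPM (counts scaled to library size) in sham replicates 1 to 5. At 10 mJ/cm2 it stood at 79.9, 24.9, 0.384, 1.02 and 81.8 CPM, a log2 fold change of 5.85 ± 1.35 (SE; edgeR unadjusted p = 0.000261). The groups overlapped, because replicate 3 lay among the sham animals, and replicates 1, 2 and 5 lay apart from all others. The transcription factor gene Foxe1 had 7.07, 2.52, 0, 0.0782 and 17.5 CPM at 10 mJ/cm2 and at most 0.177 CPM in sham. Ggt1, which encodes a gamma-glutamyltransferase, had 10, 4.49, 0, 0.0939 and 8.3 CPM and at most 0.142 CPM in sham. Both thus had the same animals on top as S100a3.

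Crhr1, the receptor of corticotropin-releasing hormone, and Dkk1, a secreted Wnt inhibitor, had few counts in sham skin. Crhr1 had 122 counts over the 10 mJ/cm2 group and 3 over sham, a ratio of 26.7 (95% interval 8.92 to 131, Clopper-Pearson, counting error only). Dkk1 had 40 counts against 1, a ratio of 26.3 (4.45 to 1063). Such ratios, here and below, use counts and library sizes summed over each group. The deepest library, exposed replicate 4 with 63.2 M counts, therefore weighs most in them, and it stood low for most of these genes. The processed pseudogene Rps13-ps4 was unlike the rest of the 10: its 84 counts at 10 mJ/cm2 were spread over all 5 animals at 0.384 to 0.931 CPM, against 2 counts in sham, a ratio of 27.6 (7.40 to 231), and its groups did not overlap. Such non-overlap was seen upward for 15 genes (0.0803%) and downward for 22 (0.118%) of all genes tested, and reads of a pseudogene may be shared with its parent gene in expected counts.

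Genes of the hair shaft stood high in replicates 1, 2 and 5 and low in all other animals. The level of the hair keratins, taken as the mean log2 CPM (prior count 2) of the members above the low-count filter, was -2.0, -2.17, -1.71, -1.67 and -1.20 in sham replicates 1 to 5. At 10 mJ/cm2 it was 1.32, 0.34, -1.97, -1.49 and 1.53. Replicates 1, 2 and 5 were thus above every sham animal, and replicates 3 and 4 lay between the lowest and highest sham animal. Of 16 hair keratins listed, 15 were in the table (Krt85 had no match) and 12 passed the low-count filter, which was set over all 30 groups. None was called (0 of 12), 8 had an unadjusted p under 0.05 upward, where 2.14% of all genes did, and all 12 had positive log2 fold changes with a median of 3.20, beside 0.01 for all genes tested. In 10 of the 12 at least 3 exposed animals were above every sham animal, which held for 8.46% of all genes.

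Krt35, an early keratin of the growing shaft, stood at 0, 0, 3.84, 0.593 and 0.463 CPM in sham, and at 94.4, 44.7, 0.256, 1.49 and 130 CPM at 10 mJ/cm2, a log2 fold change of 5.79 ± 1.73 (SE). Krt36 stood at 0.0591 to 0.794 CPM in sham, and at 3.93, 3.23, 0, 0.454 and 4.81 CPM at 10 mJ/cm2 (2.86 ± 0.98), and Krt87 had 3.14, 0.631, 0.256, 0.172 and 2.79 CPM against at most 0.177 CPM (4.26 ± 1.49). Krt32, a keratin of the shaft cuticle, differed less, with 1.24 to 6.81 CPM in sham animals and 7.85, 5.67, 2.43, 4.74 and 13.4 CPM at 10 mJ/cm2 (0.74 ± 0.58). Of its 5 exposed animals 2 were above every sham animal. The close relatives Krt31 and Krt33b had log2 fold changes of 3.21 ± 1.38 and 4.00 ± 1.29, and since such keratins share sequence, their expected counts can borrow from each other. For Krt33b only 3 counts lay behind sham, and the ratio of counts was 8.97 (2.86 to 45.3). That ratio weighs animals by depth, and exposed replicate 4, the deepest library, had 0 CPM of Krt33b, so it is smaller than the log2 fold change implies. The members that missed the filter, Krt39, Krt40 and Krt86, never exceeded 15 counts in a library. Summed over all 15 keratins in the table, whether or not they passed, the level was 4.04 to 9.59 CPM in sham animals and 119, 59.4, 3.58, 7.40 and 165 CPM at 10 mJ/cm2.

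Keratin-associated proteins, the sulphur-rich matrix in which shaft keratins are embedded, had few counts in every library. Of 58 such genes with a match, 6 passed the filter and 0 were called. An unadjusted p under 0.05 upward was seen for 4 of the 6, where 2.14% of all genes had it. The median log2 fold change of the 6 was 3.02. A gene with few counts in sham skin can pass only through animals where it is high, and the genes that did not pass do not enter this median. For 21 of the 52 that did not pass there was no count in any of the 10 libraries. Krtap7-1 had 0 counts in all 5 sham animals and 62 counts at 10 mJ/cm2, with 2.36, 1.66, 0.128, 0.0469 and 1.94 CPM, which is at least 13.6-fold higher when sham is set to the floor of 3 counts over the group. Krtap8-1 had 84 counts against 3, a ratio of 18.4 (6.08 to 90.9), and Krtap11-1 had a log2 fold change of 2.84 ± 1.24. Krtap3-2 did not share the pattern: its 1.24 to 7.36 CPM in sham animals and 2.16 to 7.29 CPM at 10 mJ/cm2 gave a log2 fold change of 0.11 ± 0.76. Summed over all 58 genes the level was 1.54 to 7.60 CPM in sham animals and 17.1, 9.85, 7.55, 5.96 and 15.5 CPM at 10 mJ/cm2, so the same animals were on top by a smaller margin than for the keratins.

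The promoters of Krt31 and Krt33b, close relatives with log2 fold changes over 3, and of Krt32, which differed less, are shown because all hold a short match to the core recognised by the Wnt effectors of the TCF/LEF family, CTTTGAA, which was searched on both strands. It was found in 5 of the 9 hair keratins with an entry in the RefSeq promoter table (Krt31, Krt32, Krt33b, Krt34 and Krt39). Of all 27025 genes with an entry 5.19% held it in the same 250 bases upstream of a gene start. It overlaps no other motif searched, the keratins of this cluster are close relatives in sequence, and a match is a description of letters and not a site of binding. The windows are on the build of the table, GRCm38.p6, which is not that of the counts, and capitals mark CTTTGAA:
Krt31, chr11:100050552-100050801, minus strand: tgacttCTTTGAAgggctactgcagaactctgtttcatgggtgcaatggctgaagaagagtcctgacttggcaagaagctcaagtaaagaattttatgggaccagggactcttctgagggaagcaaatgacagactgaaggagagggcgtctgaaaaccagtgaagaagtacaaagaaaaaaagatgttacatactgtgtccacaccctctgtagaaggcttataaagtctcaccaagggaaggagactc
Krt32, chr11:100088270-100088519, minus strand: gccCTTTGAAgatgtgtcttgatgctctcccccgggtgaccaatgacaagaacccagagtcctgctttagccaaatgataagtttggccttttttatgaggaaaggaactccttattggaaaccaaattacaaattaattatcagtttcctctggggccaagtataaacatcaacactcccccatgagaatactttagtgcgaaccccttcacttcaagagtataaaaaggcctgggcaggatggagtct
Krt33b, chr11:100029869-100030118, minus strand: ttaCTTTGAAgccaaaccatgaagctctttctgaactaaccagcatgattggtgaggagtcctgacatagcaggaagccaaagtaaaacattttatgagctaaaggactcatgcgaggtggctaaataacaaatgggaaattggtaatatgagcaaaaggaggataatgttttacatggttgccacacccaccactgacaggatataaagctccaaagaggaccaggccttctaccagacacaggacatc
The match began 244 bases before the start in Krt31 and 247 bases before it in Krt32 and Krt33b. Of 10 matched genes of the inner root sheath 1, Tchh, held it, and 0 of 9 matched genes of the matrix regulators did. It was also held by 1 of 6 matched melanosome genes, Trpm1 at the second of its 2 starts, and by 1 of 4 matched melanocyte regulators, Mc1r.

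**Figure D1:**
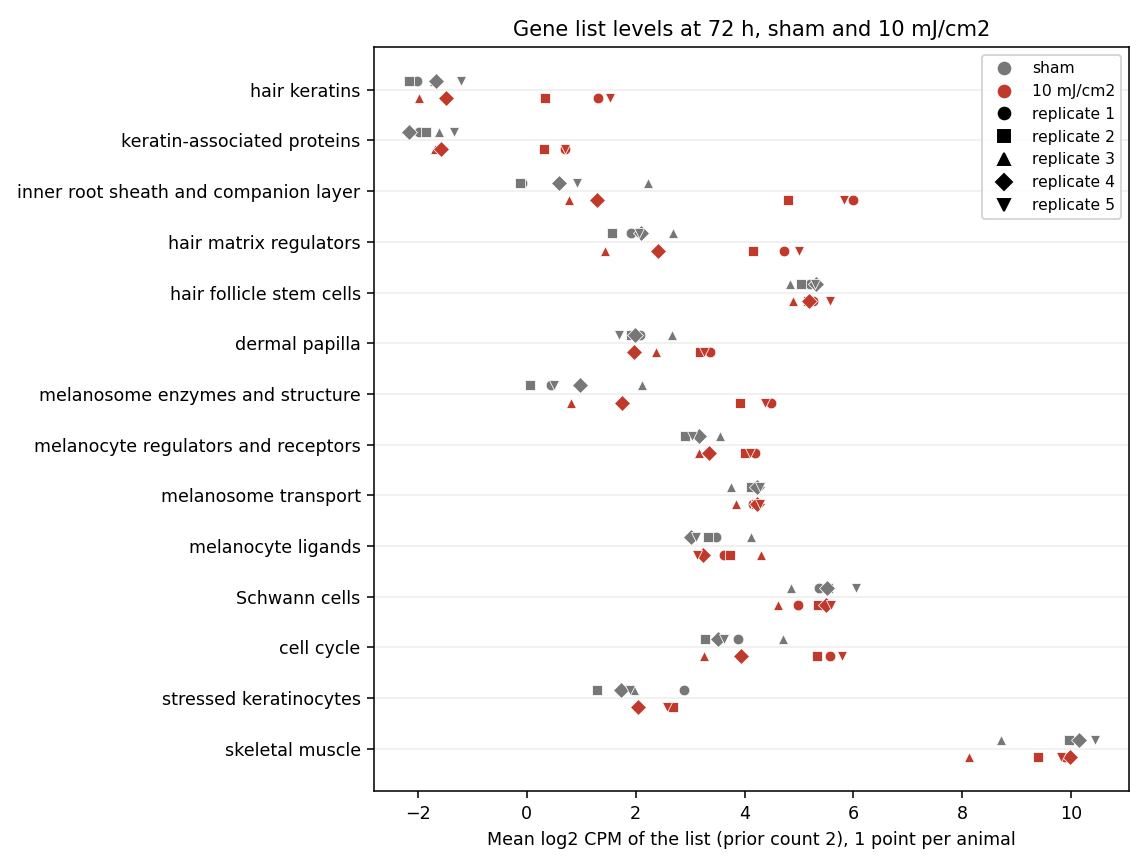
Level of 14 gene lists (mean log2 CPM, prior count 2, x axis) in each sham (grey) and 10 mJ/cm2 (red) animal at 72 h, with a marker shape for each replicate number. For hair keratins, keratin-associated proteins, inner root sheath and melanosome genes, replicates 1, 2 and 5 of 10 mJ/cm2 lie to the right of every other point, the nearest being sham replicate 5 for both shaft lists and sham replicate 3 for the sheath and melanosome lists.

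The inner root sheath, which moulds the shaft, and its companion layer showed the largest median of the hair and pigment lists, 3.99 over 11 members of which all passed the filter. None was called, and 9 of 11 had an unadjusted p under 0.05 upward, where 2.14% of all genes did. In 10 of the 11 genes replicates 1, 2 and 5 were the 3 highest of the 10 animals, which held for 6.09% of all genes. That count, here and below, was chosen after the values were seen. The level of the list was -0.09, -0.12, 2.22, 0.60 and 0.93 in sham and 5.99, 4.80, 0.77, 1.29 and 5.82 at 10 mJ/cm2. Sham replicate 3 thus stood between its group and the high exposed animals.

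Krt71, the type II keratin of all layers of the inner root sheath, stood at 20.7 to 29.4 CPM in the 5 sham animals and at 685, 337, 13.7, 28.6 and 591 CPM at 10 mJ/cm2 (log2 fold change 3.79 ± 1.17, SE). Its type I partners varied more in sham: Krt25 had 0, 0, 33.2, 1.72 and 4.17 CPM there and 465, 226, 7.42, 6.35 and 429 CPM at 10 mJ/cm2 (5.38 ± 1.98). Krt27 and Krt28 had log2 fold changes of 5.34 ± 1.68 and 3.90 ± 1.19, and the type II keratin Krt73 one of 4.83 ± 1.80. Trichohyalin, Tchh, the structural protein of the sheath and medulla, had 295, 141, 14.2, 5.3 and 107 CPM at 10 mJ/cm2 and 2.77, 2.85, 29.2, 6.7 and 3.77 CPM in sham (3.68 ± 1.38). Padi3, which converts arginines of trichohyalin to citrulline, had 32, 12.1, 0.128, 0.501 and 28.2 CPM against at most 0.709 CPM (5.64 ± 1.51). In Krt25, Tchh and Padi3 sham replicate 3 exceeded replicates 3 and 4 of the exposed group, and for Krt71 it did not stand apart. Krt75 of the companion layer stood at 15.9 to 67.9 CPM in sham, and at 13.3 to 134 CPM at 10 mJ/cm2, with a log2 fold change of 0.85 ± 0.56.

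Among regulators of the hair matrix, the Wnt effector Lef1 and the homeobox genes had the same animals on top. All 18 listed genes passed the filter, 0 were called, and the median log2 fold change was 2.23. An unadjusted p under 0.05 upward was seen for 12, where 2.14% of all genes had it. In 14 of the 18 replicates 1, 2 and 5 were the 3 highest animals, which held for 6.09% of all genes. The level was 1.92, 1.57, 2.69, 2.11 and 2.06 in sham and 4.72, 4.16, 1.43, 2.41 and 4.99 at 10 mJ/cm2, so replicate 3 was below every sham animal and replicate 4 within their range. Lef1 had 1.9 to 4.67 CPM in sham animals and 27.7, 17.9, 2.94, 3.83 and 34.9 CPM at 10 mJ/cm2 (2.37 ± 0.72, SE). Dlx3, a homeobox gene of matrix and sheath, had 4.15 to 10.8 CPM in sham animals and 117, 63.7, 3.07, 10.3 and 164 CPM at 10 mJ/cm2 (3.45 ± 0.94). Hoxc13, which drives hair keratin genes, and Msx2 had log2 fold changes of 2.18 ± 0.75 and 2.64 ± 0.87.

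The sonic hedgehog pathway, which drives growth of the matrix, was read from ligand to targets. The ligand gene Shh had 0.142, 0, 7.09, 0.356 and 0.463 CPM in sham animals and 19.4, 12.8, 0.128, 1.11 and 20.9 CPM at 10 mJ/cm2 (2.53 ± 1.31, SE). The target Gli1 had 9.26 to 27 CPM in sham animals and 99.9, 86.1, 5.25, 33.9 and 159 CPM at 10 mJ/cm2 (2.00 ± 0.75), and 4 of its 5 exposed animals were above every sham animal. The receptor gene Ptch1, which is also a target, had a log2 fold change of 0.77 ± 0.58. For Ptch1 sham replicate 3 had 204 CPM against 46.1 to 59.6 CPM in the other sham animals, so it stood level with the exposed animals at 194, 160 and 226 CPM. Without sham replicate 3 the log2 fold change of Shh was 5.08 ± 1.44, and that of Ptch1 was 1.46 ± 0.57. Leaving out the highest sham animal of both genes raises these values by construction, so they add nothing to the difference. Fits without an exposed animal are not given for these genes.

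Genes of follicle stem cells, which are present at rest and in growth, stood at similar levels in both groups. The level of the list was 4.84 to 5.30 in sham and 4.90 to 5.57 at 10 mJ/cm2. Of 12 genes 0 were called, and the median log2 fold change was 0.07. An unadjusted p under 0.05 upward was seen for 2, where 2.14% of all genes had it. Krt15, a keratin of the bulge and basal layer, had 1080, 819, 236, 1270 and 1380 CPM in sham animals and 643, 647, 329, 1070 and 1000 CPM at 10 mJ/cm2 (-0.37 ± 0.53, SE). The lowest value in each group was that of replicate 3, the library with the highest mitochondrial share of its group. The bulge genes Cd34, Lgr6 and Nfatc1 had log2 fold changes of -0.21 ± 0.24, -0.34 ± 0.29 and -0.03 ± 0.19. Both genes with an unadjusted p under 0.05, Tbx1 (1.54 ± 0.51) and Lhx2 (1.15 ± 0.45), encode transcription factors, and both were highest in replicates 1, 2 and 5: Lhx2 had 13.8 to 21.8 CPM in sham animals and 47.3, 28.5, 10.7, 16.9 and 80.2 CPM at 10 mJ/cm2.

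Of 14 dermal papilla genes 13 passed the filter, 0 were called and the median log2 fold change was 0.51. An unadjusted p under 0.05 upward was seen for 4 of the 13, where 2.14% of all genes had it. The level was 1.69 to 2.66 in sham and 3.37, 3.18, 2.38, 1.98 and 3.25 at 10 mJ/cm2. Corin, a serine protease of the papilla that also acts on coat colour, had 0.198 to 3.66 CPM in sham animals and 16.5, 15.8, 3.33, 1.17 and 19.8 CPM at 10 mJ/cm2 (2.95 ± 0.99, SE). The Wnt inhibitor Wif1 had 6.17 to 23.9 CPM in sham animals and 47.7, 32.4, 17.9, 9.92 and 43.8 CPM at 10 mJ/cm2 (1.34 ± 0.56), and the homeobox gene Alx4 had a log2 fold change of 1.78 ± 0.74. Crabp1, a retinoic acid binding protein, and Fgf7, a growth factor of dermal fibroblasts too, had values of 0.47 ± 0.56 and 0.01 ± 0.48, and for Fgf7 replicate 3 was the highest of each group with 53.6 CPM in sham animals and 66.3 CPM at 10 mJ/cm2.

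Pigment genes had the same animals on top as the shaft and sheath genes. All 10 genes of melanosome enzymes and structure passed the filter, 0 were called, and all 10 had an unadjusted p under 0.05 upward, where 2.14% of all genes did, with a median log2 fold change of 2.62. In all 10 of them replicates 1, 2 and 5 of 10 mJ/cm2 were the 3 highest of the 10 animals, which held for 6.09% of all genes. The level of the list was 0.45, 0.05, 2.12, 0.98 and 0.50 in sham and 4.48, 3.92, 0.81, 1.74 and 4.38 at 10 mJ/cm2. Sham replicate 3 was above exposed replicates 3 and 4, so the groups overlapped.

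Pmel, whose product forms the fibrils on which melanin is laid down, had 3.9, 2.37, 8.15, 6.4 and 4.89 CPM in sham animals and 76.8, 54.2, 1.92, 14.9 and 92 CPM at 10 mJ/cm2 (3.27 ± 0.81, SE; edgeR unadjusted p = 0.000525). Replicate 3 was the lowest of all 10 animals for this gene and replicate 4 was above every sham animal. Among the enzymes, tyrosinase, Tyr, which begins melanin synthesis, had 1.06, 0.475, 11.9, 1.3 and 0.595 CPM in sham animals and 28.3, 18.4, 3.33, 2.74 and 21.3 CPM at 10 mJ/cm2 (2.19 ± 1.03). Its relatives Tyrp1 and Dct, which act on later steps of eumelanin synthesis, had log2 fold changes of 2.21 ± 0.84 and 2.08 ± 0.68. Dct had 13.8, 9.02, 61.5, 24.2 and 14.3 CPM in sham animals and 142, 114, 17.7, 42.4 and 175 CPM at 10 mJ/cm2. For all 3 enzymes sham replicate 3 was the highest sham animal and stood above exposed replicates 3 and 4.

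Transporters and channels of the melanosome and its cell came with them. The cation channel gene Trpm1 had 1.35 to 6.38 CPM in sham animals and 48.5, 30.7, 2.17, 4.1 and 48.4 CPM at 10 mJ/cm2 (3.21 ± 0.93, SE). Slc45a2 and Slc24a5, transporters whose variants lighten coat and skin, had log2 fold changes of 2.80 ± 0.97 and 2.43 ± 0.76, and Gpr143, a receptor of the melanosome membrane, one of 2.97 ± 1.07. Oca2, the anion transporter gene of the pink-eyed dilution locus, had 169 counts over the exposed group and 3 over sham, a ratio of 37.0 (95% interval 12.4 to 181, Clopper-Pearson, counting error only). Mlana had the smallest value of the list, 1.33 ± 0.54, with 2.89 to 8.13 CPM in sham animals and 19.8, 11.5, 2.43, 6.66 and 20.6 CPM at 10 mJ/cm2.

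**Figure D2:**
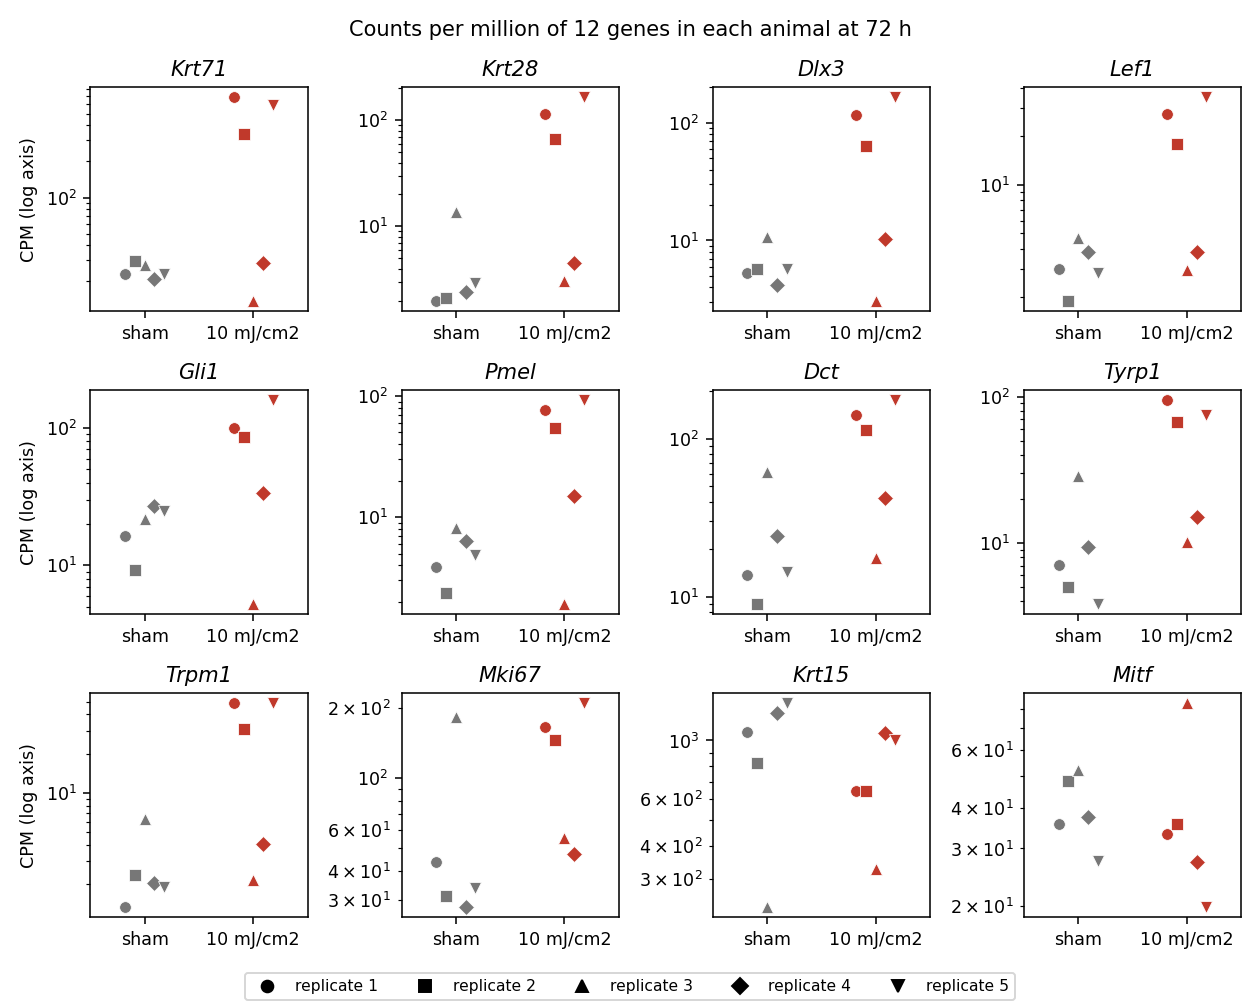
CPM (log axis) of 12 genes in each sham (grey) and 10 mJ/cm2 (red) animal at 72 h, with a marker shape for each replicate number. In the follicle and pigment panels replicates 1, 2 and 5 of 10 mJ/cm2 lie above the sham animals, as for Pmel at 76.8, 54.2 and 92 CPM against at most 8.15 CPM, while Krt15 and Mitf show no such split.

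The promoters of 4 melanosome genes are shown because they hold the sequence TCATGTG, the core of the M-box that MITF and related factors recognise. It was searched on both strands of the 250 bases before the gene start. Of 6 melanosome genes with an entry, 5 held it (Tyr, Tyrp1, Dct, Slc24a5 and Trpm1) and Oca2 did not, against 3.72% of all 27025 genes with an entry. None of the 9 hair keratins, 10 inner root sheath genes and 9 matrix regulators with an entry held it. The windows are from RefSeq on GRCm38.p6, capitals mark TCATGTG or its reverse complement, and the matches describe letters only:
Tyr, chr7:87493513-87493762, minus strand: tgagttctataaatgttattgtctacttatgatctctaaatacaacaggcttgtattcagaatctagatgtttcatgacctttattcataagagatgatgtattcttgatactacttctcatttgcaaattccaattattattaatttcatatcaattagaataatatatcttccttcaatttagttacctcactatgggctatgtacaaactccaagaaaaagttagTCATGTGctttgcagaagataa
Tyrp1, chr4:80833963-80834212, plus strand: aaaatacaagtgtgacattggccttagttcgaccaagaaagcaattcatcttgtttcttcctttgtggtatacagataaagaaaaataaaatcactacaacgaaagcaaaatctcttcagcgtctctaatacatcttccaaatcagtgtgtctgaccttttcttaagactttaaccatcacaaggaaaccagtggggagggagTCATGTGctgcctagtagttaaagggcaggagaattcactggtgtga
Dct, chr14:118052247-118052496, minus strand: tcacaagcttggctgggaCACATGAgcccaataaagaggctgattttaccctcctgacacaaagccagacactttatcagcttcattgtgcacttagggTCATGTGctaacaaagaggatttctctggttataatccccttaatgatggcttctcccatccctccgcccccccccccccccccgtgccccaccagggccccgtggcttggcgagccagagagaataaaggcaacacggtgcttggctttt
Trpm1, the first of 2 starts, chr7:64153585-64153834, plus strand: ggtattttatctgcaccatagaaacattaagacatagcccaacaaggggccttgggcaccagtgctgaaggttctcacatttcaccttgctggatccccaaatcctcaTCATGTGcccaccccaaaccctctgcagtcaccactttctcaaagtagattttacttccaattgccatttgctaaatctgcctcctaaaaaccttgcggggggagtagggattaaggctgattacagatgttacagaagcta
The match began 22 bases before the start in Tyr, 47 in Tyrp1 and 142 in Trpm1, and Dct held it at 151 bases and, reversed, at 232 bases. The Mc1r window held it as well, at 52 bases.

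Regulators and receptors of melanocytes, several of which other skin cells also express, differed less. Of 7 genes, all passed the filter, 0 were called, and the median log2 fold change was 0.47. An unadjusted p under 0.05 upward was seen for 2, where 2.14% of all genes had it. The level was 2.90 to 3.55 in sham and 4.19, 4.01, 3.16, 3.35 and 4.10 at 10 mJ/cm2. Mitf, the transcription factor that governs the pigment genes, had 35.7, 48.2, 52.2, 37.5 and 27.4 CPM in sham animals and 33.2, 35.6, 83.3, 27.2 and 19.9 CPM at 10 mJ/cm2 (-0.02 ± 0.38, SE). It was highest in replicate 3 of each group and not in replicates 1, 2 and 5, and counts per gene do not separate its melanocyte isoform from those of other cells. Mc1r, the melanocortin receptor, had at most 0.768 CPM in sham animals and 3.14, 3.07, 0, 0.688 and 4.11 CPM at 10 mJ/cm2 (2.86 ± 1.05), and Pax3 had a value of 1.16 ± 0.52. The receptor genes Kit (0.56 ± 0.28), Ednrb (0.47 ± 0.44) and Erbb3 (-0.10 ± 0.17) had smaller ones, and for Kit replicates 1, 2 and 5 were again the exposed animals above every sham animal, with 25.5, 16.4 and 17.1 CPM against 8.2 to 14.7 CPM.

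Genes that move melanosomes in many cell types did not follow. The level of the transport list was 3.76 to 4.28 in sham and 3.85 to 4.28 at 10 mJ/cm2. Of 14 genes 0 had an unadjusted p under 0.05 in either direction, where 2.55% of all genes did, and the median log2 fold change was 0.01. The motor gene Myo5a had a value of 0.27 ± 0.26, and Ap3b1, Hps5 and Mreg had 0.02 ± 0.14, 0.01 ± 0.16 and -0.19 ± 0.18. Of the ligands that keratinocytes and dermal cells offer to melanocytes, 5 of 6 in the table passed the filter (Pomc did not, and Asip had no match). None of the 5 had an unadjusted p under 0.05, where 2.55% of all genes did, and the median was 0.10. Kitl had 24.6 to 97.3 CPM in sham animals and 28 to 99.5 CPM at 10 mJ/cm2 (0.10 ± 0.54), and Fgf2 and Edn1 had 0.05 ± 0.41 and 0.19 ± 0.26. Edn3 had 2.61 to 4.9 CPM in sham animals and 10.2, 6.86, 3.07, 3.43 and 10.4 CPM at 10 mJ/cm2 (1.02 ± 0.51), with replicates 1, 2 and 5 on top once more. Schwann cell genes, which share Sox10 with melanocytes, all had negative values with a median of -0.20, and Drp2 and Ncmap stood at -0.52 ± 0.26 and -0.42 ± 0.44.

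**Figure D3:**
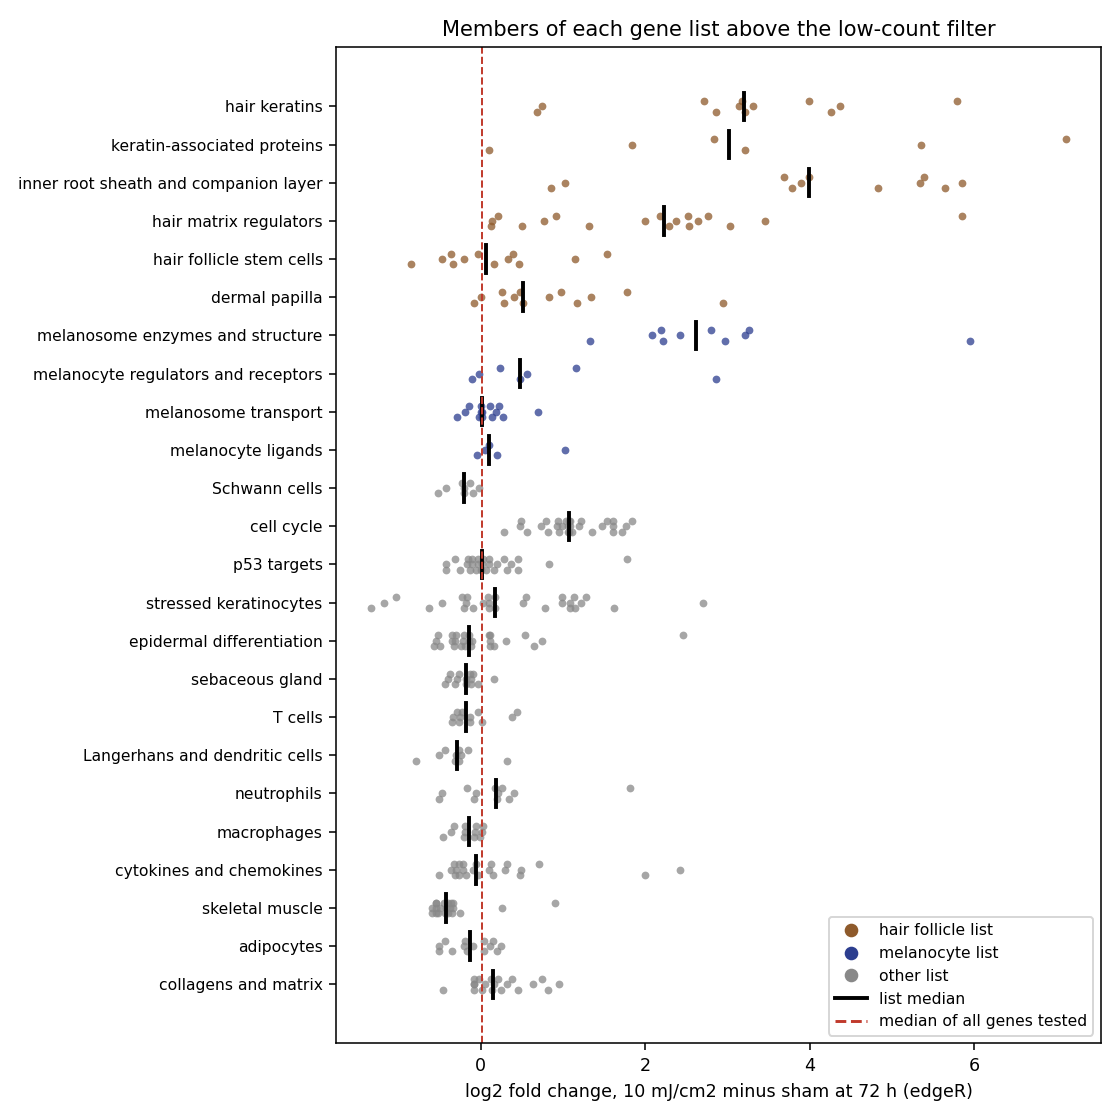
Log2 fold change of 10 mJ/cm2 against sham at 72 h (x axis) for every listed gene above the low-count filter, 1 point per gene, with the median of each list as a black bar and that of all genes tested as a dashed line. Only 6 of 58 keratin-associated genes passed that filter, which favours genes that are high in some animals. Inner root sheath, hair keratin, keratin-associated, melanosome and matrix lists have medians of 3.99, 3.20, 3.02, 2.62 and 2.23, that of cell cycle genes is 1.08, and the others lie between -0.42 and 0.51; no point passed the adjusted test.

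Genes of dividing cells had, by their level, the same 3 animals on top with a narrower gap. All 30 cell cycle genes passed the filter and had positive log2 fold changes with a median of 1.08, and 0 were called. An unadjusted p under 0.05 upward was seen for 14, where 2.14% of all genes had it. The level was 3.88, 3.27, 4.71, 3.51 and 3.62 in sham and 5.57, 5.34, 3.26, 3.94 and 5.79 at 10 mJ/cm2. Mki67, the marker of cycling cells, had 43.8, 31.3, 182, 28 and 33.6 CPM in sham animals and 165, 145, 55.4, 47.2 and 209 CPM at 10 mJ/cm2 (0.95 ± 0.65, SE), so sham replicate 3 stood among the high exposed animals. Top2a had a value of 1.09 ± 0.63, and the mitotic genes Ccnb2 and Aurkb had 1.60 ± 0.59 and 1.76 ± 0.66. In 22 of the 30 genes replicates 1, 2 and 5 were the 3 highest animals, which held for 6.09% of all genes. The p53 target list had a median of 0.02, and its member with the smallest p, Psrc1, which acts on the mitotic spindle, had 2.37 to 7.15 CPM in sham animals and 26.7, 18.8, 2.56, 8.23 and 34.6 CPM at 10 mJ/cm2 (1.78 ± 0.55). Tigar, a metabolic p53 target, had -0.43 ± 0.19.

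In no epidermal, immune or stromal list were replicates 1, 2 and 5 the 3 animals with the highest levels, and in some lists replicates 1 and 5 were low. The epidermal differentiation level was 4.91, 5.96, 6.15, 6.54 and 5.31 at 10 mJ/cm2 and 5.49 to 6.11 in sham, and the sebaceous gland level was 5.94, 6.56, 6.79, 7.07 and 6.18 against 6.52 to 7.07. In both lists replicates 1 and 5 were the 2 lowest of all 10 animals and replicate 2 lay in the sham range. In the macrophage list replicates 1, 3 and 5 were below every sham animal. The part of these lists in the follicle and pigment values was not tested. Of 29 stressed keratinocyte genes 1 had an unadjusted p under 0.05, where 2.55% of all genes had it. It was the connexin gene Gjb2 (2.7 ± 1.02, SE), with 3.32 to 31.6 CPM in sham animals and 192, 73.3, 12.9, 10.2 and 112 CPM at 10 mJ/cm2. The peptidase gene Klk10 had 1.22 ± 0.68. An unadjusted p under 0.05 was also seen for 1 of 27 epidermal differentiation genes, Krt2. Krt2 stood at 1.36 to 4.74 CPM in sham, and at 4.52, 24.4, 31.9, 8.42 and 2.33 CPM at 10 mJ/cm2 (2.46 ± 1.01). It was highest in replicates 2 and 3, and Krt1 had -0.55 ± 0.35. No gene of the sebaceous gland, T cell, Langerhans and dendritic cell, neutrophil, macrophage, cytokine, skeletal muscle, adipocyte and matrix lists had an unadjusted p under 0.05. With 2.55% of all genes below that threshold, counts of 0 or 1 in lists of this size do not set a list apart. The chemokine genes Cxcl9 and Cxcl10 had 0.71 ± 0.45 and 0.49 ± 0.35, and the collagen VI genes Col6a1 and Col6a2 had 0.64 ± 0.37 and 0.95 ± 0.57. Of 21 skeletal muscle genes, which mark the layer below the dermis, 19 had negative values with a median of -0.42, for example -0.55 ± 0.36 for Tnnt3 and -0.59 ± 0.41 for Ryr1. With the muscle level as a covariate the medians of hair keratins, inner root sheath and melanosome genes were 3.21, 4.23 and 2.81.

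The contrast between lists was seen with and without the libraries that stood apart. Without sham replicate 3 the medians of hair keratins, inner root sheath and melanosome genes were 2.87, 4.87 and 3.53, and without exposed replicate 3 they were 3.66, 4.36 and 2.91. With both left out, a fit added after seeing the data, they were 3.31, 5.18 and 3.83. All 30 cell cycle genes then had an unadjusted p under 0.05, as had 1003 of all genes tested, but still 0 genes were called. For the cell cycle level the libraries left out were the highest sham animal (4.71) and the lowest exposed animal (3.26). The count of 30 thus follows in part from that choice. Without exposed replicate 5 the medians were 2.59, 3.75 and 2.27, and the hair keratins with an edgeR unadjusted p under 0.05 were 3 in place of 8. Within libraries titled R1_001 (2 against 2, where both exposed animals were high) the medians were 4.45, 6.28 and 4.41, and within those titled R1 (3 against 3, where replicate 5 alone was high) they were 2.20, 3.54 and 1.57, with 0 genes called in either. With the mitochondrial share as a covariate, a fit added after seeing the data, they were 2.91, 3.96 and 2.58.

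The same follicle and pigment genes were also read in the other groups, because animals with high levels occurred in sham skin and at other doses. The hair keratin level was above that of the highest 72 h sham animal in 0 of 25 animals at 0 h, 2 of 25 at 6 h, 7 of 25 at 24 h, 9 of 24 at 48 h, 9 of 25 at 72 h and 9 of 21 at 96 h. At 72 h these were 4 of 5 animals at 5 mJ/cm2, 3 of 5 at 10 mJ/cm2, and 1 of 5 each at 20 and 40 mJ/cm2. The highest single level at 72 h was 2.24 in an animal of 5 mJ/cm2. At 96 h all 4 animals of 10 mJ/cm2 and 2 of 5 sham animals were above the highest 72 h sham animal, which stood at -1.20. Several of the animals counted were only just above it. The 4 of 10 mJ/cm2 at 96 h stood at -1.14, 0.89, -1.11 and -1.07. At 72 h the 4 of 5 mJ/cm2 stood at -1.12, 2.24, -1.16 and -0.19, that of 20 mJ/cm2 at -0.64 and that of 40 mJ/cm2 at -1.11. Over the 30 sham animals of all times the level ran from -2.20 to 1.00, so exposed replicates 1 and 5 at 72 h (1.32 and 1.53) were above every sham animal of the series and replicate 2 (0.34) was not. The melanosome level ran from 0.05 to 4.40 over the 30 sham animals, and the exposed replicates 1, 2 and 5 (4.48, 3.92 and 4.38) lay near its top, with replicate 1 above all of them. Over the same sham animals the inner root sheath level reached 5.64 and the cell cycle level 5.52. Exposed replicate 2 (4.80 and 5.34) was below these, and replicates 1 (5.99 and 5.57) and 5 (5.82 and 5.79) were above. At 0 h 7 of 25 animals had a cell cycle level above the highest 72 h sham animal.

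**Figure D4:**
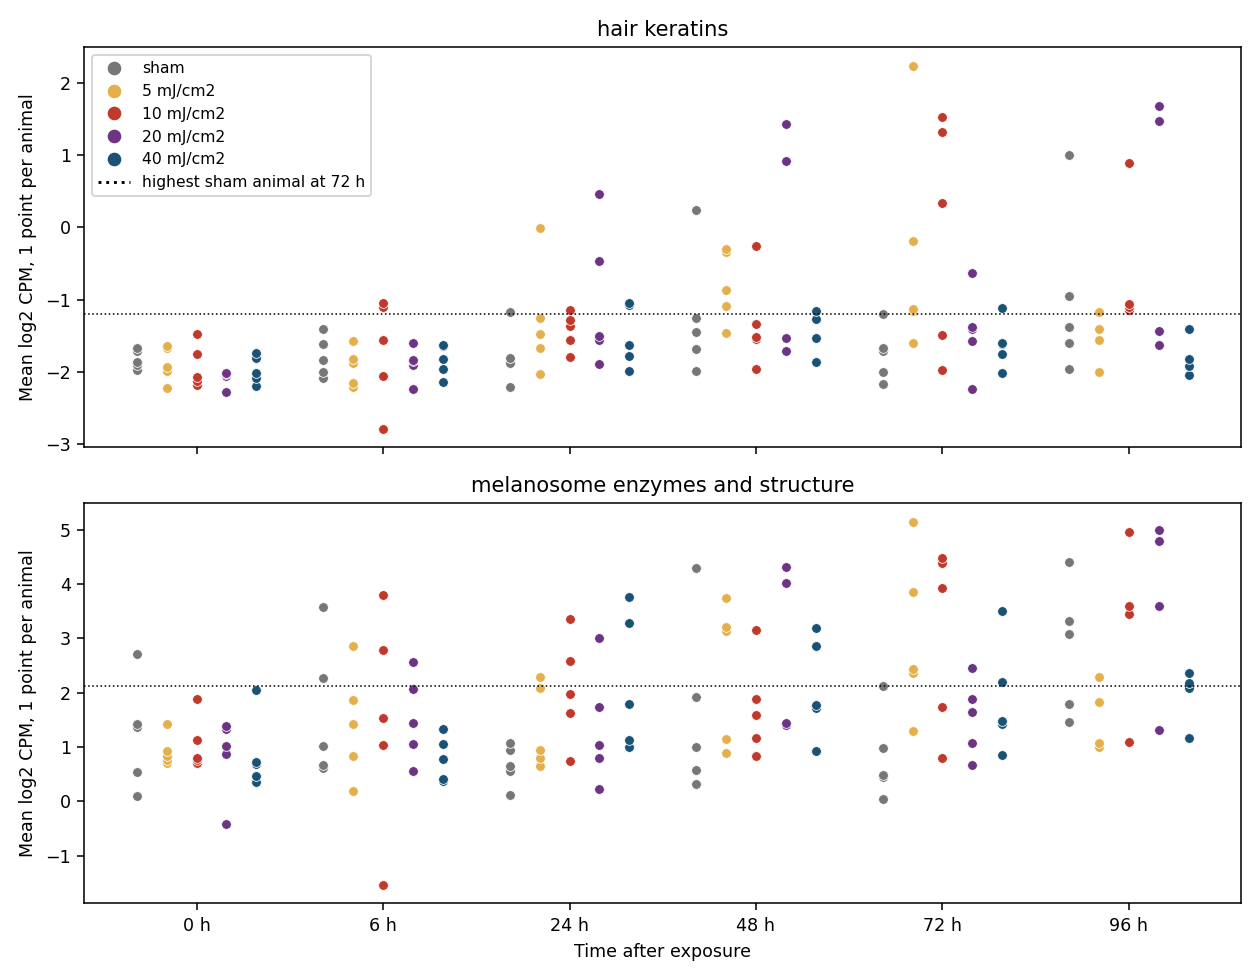
Level of hair keratins (top) and of melanosome enzymes and structure (bottom) as mean log2 CPM in each of the 145 animals, by time after exposure and coloured by dose, with the highest 72 h sham animal as a dotted line. Points above the line are 0 of 25 for hair keratins at 0 h and 9 of 25 at 72 h, and they occur in sham and exposed groups.

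Set against 40 mJ/cm2 at 72 h, the 10 mJ/cm2 animals were lower in neutrophil and stressed keratinocyte genes, and 1 gene of the hair and melanocyte lists was called. edgeR called 151 of 18677 genes (0.808%), 137 lower (0.734%) and 14 higher (0.075%) at 10 mJ/cm2. Saa3, an acute phase serum amyloid, was lower at 10 mJ/cm2 by a log2 fold change of -10.50 ± 1.33 (SE, edgeR adjusted p = 0.00119), with 0.242 ± 0.171 CPM at 10 mJ/cm2 and 440 ± 594 CPM at 40 mJ/cm2 (SD, n = 5). The lubricin gene Prg4 (-4.67 ± 0.65), the glutathione-linked oxidoreductase genes Gsto1 (-1.55 ± 0.21) and Glrx (-1.68 ± 0.25) were lower too. H2-M5, a non-classical class I gene (3.12 ± 0.52), the sebaceous desaturase Scd3 (2.07 ± 0.42), the phosphatase Ptpn14 (1.00 ± 0.21) and Thsd4 (1.44 ± 0.30) were higher. Of 29 stressed keratinocyte genes 16 were lower at 10 mJ/cm2, as were 10 of 12 neutrophil genes and 5 of 23 cytokine genes. Neutrophil levels were -0.68 to 0.14 at 10 mJ/cm2 and 0.12 to 5.42 at 40 mJ/cm2. That gene was Crabp1 of the papilla list, which was lower (-2.59 ± 0.59, edgeR adjusted p = 0.0332). The medians of hair keratins, inner root sheath and melanosome genes were 2.87, 2.67 and 1.51. The count of 151 was 307 by DESeq2. It was 17, 32, 84, 30 and 39 without exposed replicates 1 to 5 of 10 mJ/cm2, and 25, 246, 9 and 308 without replicates 1, 3, 4 and 5 of 40 mJ/cm2.

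Against 20 mJ/cm2 at 72 h edgeR called 0 genes (0%), with 211 (1.13%) at an unadjusted p under 0.05, and DESeq2 called 0 with 242. The count of 211 was 117, 493, 338 and 130 without exposed replicates 1, 3, 4 and 5 of 10 mJ/cm2. The medians of hair keratins, inner root sheath and melanosome genes were 2.85, 3.59 and 1.87.

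Whether the difference from sham was larger at 72 h than at 48 h or 24 h was tested directly, with the sham animals of each time. Against 48 h edgeR called 0 genes (0%) and had 531 (2.84%) at an unadjusted p under 0.05, of which 423 (2.26%) had a larger value at 72 h. The count of 531 was 286 without sham replicate 2 of 48 h, 266 without exposed replicate 5 of 72 h and 1621 without exposed replicate 3 of 72 h. Among them were 5 of 12 hair keratins, 8 of 11 inner root sheath genes and 6 of 10 melanosome genes, and the medians of these lists were 3.79, 5.59 and 2.87. The highest hair keratin level of a sham animal was 0.25 at 48 h, in replicate 2, and -1.20 at 72 h. DESeq2 called S100a3 (8.32 ± 1.72, SE, adjusted p = 0.0248) and Ggt1 (9.19 ± 2.01, adjusted p = 0.0450), for which edgeR gave adjusted p = 1. Against 24 h edgeR called 0 genes (0%) with 127 (0.68%) at an unadjusted p under 0.05, of which 85 (0.455%) had a larger value at 72 h. Among these were 3 of 12 hair keratins, 0 of 11 inner root sheath genes and 2 of 10 melanosome genes, and the medians of these lists were 2.47, 1.28 and 0.55. The count of 127 was 240 without exposed replicate 3 of 72 h. DESeq2 called the pseudogene Ftl2-ps (29.72 ± 4.86) and the predicted gene Gm21983 (17.44 ± 3.79), for which edgeR gave 10.96 ± 4.19 and 2.7 ± 2.43 with adjusted p = 1. The shares at an unadjusted p under 0.05 against 20 mJ/cm2 (1.13%), 48 h (2.84%) and 24 h (0.68%) also lay below 0.05. The comparisons with 40 mJ/cm2, 20 mJ/cm2, 48 h and 24 h all share the exposed animals of 72 h, so their values are not independent of those against sham.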

How the data were processed

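For 145 libraries of poly(A) RNA the authors deposited expected counts by gene in a single table, with 12.6% of its values not whole. The libraries were stranded, took 300 ng of RNA each and gave single reads of 75 bases, per the labels' protocols. Tools named in the submitters' processing notes are STAR 2.7.10a, fastp 0.23.0, bcl2fastq 2.20.422 and DESeq2 1.36.1, with GRCm39 as the build. Counting program, annotation and use of strand: not given in the sources used here. Close relatives, pseudogenes and overlapping genes are therefore uncertain. GENCODE vM21 names gave symbols to 52083 of 55416 identifiers, and the rest held 0.0906% of all counts.

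Rounded expected counts were tested in R 4.3.3 by the two-sided quasi-likelihood F test of edgeR 4.0.16 with TMM scaling. The filter filterByExpr over the 30 groups left 18677 genes. All 25 libraries of 72 h entered 1 fit that held the ending of the library title (R1 or R1_001) as a further term, and comparisons with 48 h and 24 h used the libraries of both times. Adjustment followed Benjamini and Hochberg over all genes, with a threshold of 0.05. SE come from the fold and the F value. CPM use TMM-scaled library sizes, and a prior count of 2 was added for log2 values. P-values of this test set the difference between groups against the spread between animals, estimated over all libraries of the fit. DESeq2 1.42.0 was an alternative, and the closing section gives the others.

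Members, motifs and all 24 gene lists were chosen with earlier results of these data known. Named genes are the 10 with the smallest p, the 4 with the highest mean CPM in each hair and melanocyte list and, in other lists, the 2 with the smallest p, of which those of 6 lists are not printed. Further genes of the follicle, melanocyte and cell cycle lists were named after their values were seen. For comparisons with called genes, the 4 with the smallest p in each direction are named, apart from predicted genes. Where a group held 0 counts, the floor was 3 counts over the group. Promoter windows came from RefSeq.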

Additional observations from a re-analysis of the deposited data

Results flagged for a closer look

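A value far from the other 4 of its group was found in 35 of 222 groups of 5 animals checked. Chance gives about 1 in 20 for normally distributed values. Most values checked were CPM without a log, some from few counts, so no excess is read from the 35. In 24 of the 35 the animal was sham replicate 3. It was the highest sham animal for the shaft gene Krt35 at 3.84 CPM and the papilla gene Corin at 3.66 CPM. It was also the highest for some sheath and matrix genes: Krt25 33.2, Krt73 18.7, Krt28 13.8, Tchh 29.2, Dlx3 10.8, Hoxc13 12.8, Shh 7.09 and Ptch1 204 CPM. It was likewise the highest for some pigment genes: Tyr 11.9, Tyrp1 28.8, Dct 61.5, Trpm1 6.38, Gpr143 0.413, Oca2 0.177, Pax3 3.19 and Edn3 4.9 CPM. The same held for Mki67 at 182, Top2a at 164, Fgf2 at 72 and Gjb2 at 31.6 CPM. It was the lowest sham animal for Tigar at 34.8 CPM and for the level of skeletal muscle genes at 8.70 log2 CPM. Among genes without such a flag, it was the lowest sham animal for Krt32 at 1.24, Krt36 at 0.0591, Krt75 at 15.9 and Mlana at 2.89 CPM. The hair keratin level was highest in sham replicate 5, at -1.20 against -1.71 in sham replicate 3. The values of sham replicate 3 belong to 1 animal and are not independent, and its library held 12.0% mitochondrial counts.

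Exposed replicate 3 was the highest of its group for Mitf at 83.3, Erbb3 at 140, Fgf7 at 66.3 and Fgf2 at 79.6 CPM and for the share of mitochondrial counts at 14.4%, and the lowest for the melanosome transport level at 3.85. Exposed replicate 1 had the lowest cytokine level, 0.10, and exposed replicate 4 the most counts, 63.2 M. Sham replicate 5 was the highest sham animal for Rps13-ps4 at 0.132 and Dkk1 at 0.0661 CPM, which are 1 or 2 counts, and sham replicate 2 the lowest for Tbx1 at 2.85 CPM.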

How the results depend on the processing

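No paired analysis was possible because the animals carry numbers of their own and no number is shared between groups. The count of genes called between 10 mJ/cm2 and sham at 72 h was 0 in every alternative run, with 62 to 1280 genes at an unadjusted p under 0.05, and was 0 against 20 mJ/cm2 as well. The cause of the moves below was not tested. For 10 against 40 mJ/cm2 the 151 calls were 307 by DESeq2, 71 with the hair keratin level as covariate, 252 with the skeletal muscle level, 651 with the mitochondrial share (added after seeing the data), 493 in one fit of all 145 libraries, and 9 to 308 with 1 library left out. For the comparisons of the effect at 72 h with those at 48 h and 24 h, DESeq2 called 2 genes each in place of 0.

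With the hair keratin level as covariate, which takes out the follicle difference by construction, the list medians were 0.05 for hair keratins, 0.18 for the inner root sheath and 0.71 for melanosome genes. The log2 fold changes that turned direction there were Krt32 -0.47, Krtap11-1 -0.79, Krt73 -0.021, Krt75 -0.65, Mitf 0.20, Mreg 0.0060, Shh -0.18 and Krt31 -1.58. With the skeletal muscle level they were Krt15 0.14, Nfatc1 0.074, Fgf7 -0.42, Hps5 -0.076, Kitl -0.22, Fgf2 -0.21 and Edn1 -0.0046. In the libraries titled R1 they were Nfatc1 0.0029, Erbb3 0.039, Mitf 0.15 and Mreg 0.14, and in those titled R1_001 Krtap3-2 -0.89, Fgf7 -0.13, Ap3b1 -0.15, Hps5 -0.077, Fgf2 -0.0084 and Edn1 -0.14. Without both libraries of over 10% mitochondrial counts, an alternative added after seeing the data, they were Krtap3-2 -0.13, Fgf7 -0.19, Ap3b1 -0.067, Hps5 -0.096 and Edn1 -0.083. Single turns were Mitf at 0.0050 by DESeq2 and 0.0049 with RLE size factors, Fgf7 at -0.059 with the mitochondrial share, and Hps5 at -0.0016 in one fit of all libraries. With 1 library left out, values that turned ranged from -0.45 to 0.15 for Mitf, -0.18 to 0.073 for Nfatc1, -0.58 to 0.39 for Fgf7, -0.080 to 0.075 for Hps5, -0.25 to 0.50 for Kitl, -0.35 to 0.41 for Fgf2, -0.10 to 0.33 for Edn1, -0.035 to 0.069 for Ap3b1 and -0.20 to 0.75 for Krtap3-2. The 85 values followed gave 1870 values under the alternatives, and 66 of these turned direction. No value followed had passed the test. The number of animals, 5 a group, and the few counts of shaft genes in sham libraries limit the precision.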
